A study of Mus musculus with 9 samples.

Results

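The comparison of 17β-estradiol (E2) with 4-hydroxytamoxifen (4OHT) was made in FVB MOE cells, a monoclonal line of secretory mouse oviductal epithelial cells, by RNA sequencing. Of the 9 samples of the series 6 belong to it, 3 with E2 and 3 with 4OHT, and each E2 sample was paired with the 4OHT sample of the same replicate number. The cells were starved of hormones for 48 h in phenol red-free medium with charcoal-stripped serum and then treated for 24 h with 1 nM E2 or 100 nM 4OHT, and the other 3 samples received only the solvent, 0.1% DMSO, which all samples shared. The 2 agents were therefore compared at different doses. The line is 1 clone, and its growth medium before starvation contained 17β-estradiol. Nothing in the labels says whether samples of a condition came from separate cultures. The p-values measure the spread that remains once differences between replicate numbers are removed, and that spread may be technical.

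E2 is the main estrogen. It binds estrogen receptor α (ERα, encoded by *Esr1*), which then acts as a transcription factor at estrogen response elements and through other factors bound to DNA. 4OHT is the active metabolite of tamoxifen, a selective estrogen receptor modulator that occupies the same pocket of the receptor and acts as an agonist or an antagonist depending on the tissue. In the oviduct, secretory cells respond to estrogen through the cycle, and *Pgr*, the progesterone receptor gene, is a standard readout of ERα activity.

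The deposited values are FPKM, which divide the fragments of a gene by its transcript length and by the size of the library. The unit of the test was the log2 of FPKM plus 1, and a log2 fold change is E2 minus 4OHT on that scale, so it understates changes of genes near or below 1 FPKM. Of 23332 gene rows, 11339 reached 1 FPKM in 3 or more samples, and the 11094 of these without a value of exactly 0 were tested. The FPKM of all rows summed to between 522517 and 588640 per sample, and the median over the tested rows lay between 13.3 and 13.6. No counts were analysed here, so the number of reads behind each gene's value is unknown. The paper does list the reads of each library, which differed between samples. Of the secretory cell markers, *Pax8*, *Krt7*, *Krt8*, *Krt18*, *Wt1*, *Msln*, *Ovgp1* and *Esr1* had a mean FPKM of at least 1. *Ovgp1* was low, at most 2.61. The other secretory markers, *Epcam*, *Cdh1*, *Muc1* and *Sox17*, were near 0 in every sample. Their highest FPKM were 0.138, 0.422, 0.510 and 0.0174, and *Epcam* and *Cdh1* are general epithelial markers. *Esr2*, which encodes estrogen receptor β, did not exceed 0.130. The summed FPKM of the 12 secretory markers was 2310 to 2520 in E2 and 1520 to 1700 in 4OHT, and of the 8 tested 5 were higher in E2 and 1, *Msln*, was lower. Of the fibroblast markers the sum was 18.5 to 24.7 in E2 and 8.55 to 16.2 in 4OHT, with *Thy1* and *Tcf21* at 0 throughout. Of its 3 tested members only *Dcn* was called (1.93), while *Col1a1* (-0.01) and *Postn* (-0.07) were not. The sum of 8 endothelial markers was at most 0.766 and that of 9 leukocyte markers at most 9.94. In such bulk samples, fewer cells of a type and less RNA per cell cannot be told apart.

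Of the 11094 rows, 1305 were lower in E2 than in 4OHT (11.8%) and 1243 were higher (11.2%) at an adjusted p under 0.05, together 2548 (23%). Adjusted p-values here and below are from limma with the replicate number as a block and Benjamini-Hochberg adjustment over all rows. The sides were nearly equal in number but not in size. The median log2 fold change was -0.21 among the lower rows and 0.26 among the higher rows, and over all rows it was -0.01. A difference of at least 0.5, about 1.41-fold, was reached by 27 lower and 210 higher rows. Only Mir1896 among the lower rows reached 1, against 66 of the higher rows. With every sample scaled to the same FPKM total, 1016 rows were lower and 1502 higher, so the share of calls that were higher moved from 48.8% to 59.7%.

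The calls rested on the pairing. Without the block, 2 rows were lower (0.018%), *Lmcd1* and *Pdk4*, and 38 were higher (0.343%). Of the 1305 lower rows, 1303 were lower in all 3 pairs, the exceptions being *Dusp12* and *H1fx*, and in 620 (47.5%) all 3 E2 samples lay below all 3 4OHT samples. Over all tested rows that order of the samples held in 10.1%, and 31.3% were lower in all 3 pairs. Of the 1243 higher rows, 1241 were higher in all 3 pairs, beside 24.6% of all rows, and in 638 (51.3%) every E2 sample lay above every 4OHT sample, beside 8.41% of all rows. For the pairs and for the order of samples, the calls were made from the same values, so these shares are a description. The median SD of the 3 paired differences was 0.091 among the lower rows, while the SD within the 4OHT samples was 0.14 at the median. The test with the block favours rows with a small SD of paired differences, so these SDs are a description too. The count of lower rows was 247 without 4OHT replicate 1, 376 without 4OHT replicate 2, 630 without E2 replicate 2, 832 without DMSO replicate 3 and 864 without E2 replicate 3. The count of higher rows was 510 without 4OHT replicate 1 and 711 without 4OHT replicate 2.

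**Figure D1:**
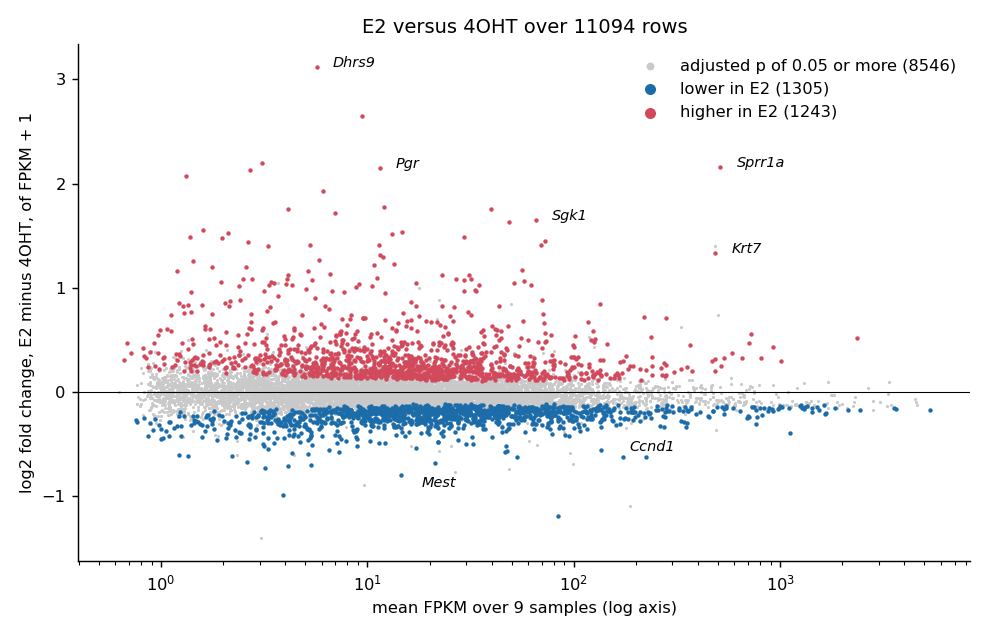
Each point is 1 of 11094 gene rows, with its mean FPKM over 9 samples on a log axis and its log2 fold change, E2 minus 4OHT, of FPKM + 1. The 1305 lower rows (blue) stay within a narrow band down to -1.18, while the 1243 higher rows (red) reach 3.11.

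The genes lowest in E2 relative to 4OHT had varied functions. *Mest*, an imprinted gene that encodes a hydrolase-like protein (GRCm38 chromosome 6, 30723547 to 30748465), had 8.32, 9.59 and 10.6 FPKM in E2 replicates 1, 2 and 3. In 4OHT it had 15.3, 16.9 and 19.2 FPKM, and in DMSO 14.2, 18.5 and 19.0. Every E2 sample lay below every 4OHT and DMSO sample. The mean fell from 17.15 ± 1.97 to 9.49 ± 1.12 FPKM (SD, n = 3), and the log2 fold change was -0.79 (SE 0.047, adjusted p = 4.83e-05). Without the block its adjusted p was 0.0509.

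*Gja1* encodes connexin 43, the subunit of a widespread gap junction channel (chromosome 10, 56377330 to 56402513). It had 31.1, 41.5 and 35.8 FPKM in E2 and 45.0, 61.8 and 49.7 in 4OHT. The groups did not overlap, and the paired differences of -0.52, -0.56 and -0.46 were close to each other (log2 fold change -0.51, adjusted p = 0.000227). *Pdk4*, a kinase that switches off pyruvate dehydrogenase, had 6.55, 7.08 and 6.79 FPKM in E2 and 9.48, 10.2 and 9.28 in 4OHT (-0.45, adjusted p = 0.000347). The groups did not overlap, and it passed without the block as well (adjusted p = 0.0447). *Lmcd1*, a LIM-domain transcriptional cofactor, had 5.15, 5.06 and 5.51 FPKM in E2 and 8.26, 9.21 and 7.54 in 4OHT (-0.58, adjusted p = 0.0402 without the block).

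Secreted and surface proteins were among the genes with the largest negative differences. *Apln*, the ligand apelin, had 1.15, 1.83 and 2.66 FPKM in E2 and 2.55, 4.04 and 4.65 in 4OHT (log2 fold change -0.73, adjusted p = 0.000785). Here E2 replicate 3 lay above 4OHT replicate 1, and only the pairs separate the conditions. *Ccl17*, a chemokine that attracts T cells, was lower by -0.70 and *Serpinf1*, which encodes the anti-angiogenic factor PEDF, by -0.62, both below 8 FPKM in all 9 samples. *Upk3b*, a uroplakin, had 1.31, 1.75 and 1.88 FPKM in E2 and 2.98, 3.51 and 3.12 in 4OHT (-0.67, adjusted p = 0.000621). *Upk3b* is also a mesothelial marker, and of the 5 tested markers of that list *Upk3b*, *Msln* and *Cdh2* were lower and *Krt19* was higher. The summed FPKM of the list was 338 to 465 in E2 and 339 to 433 in 4OHT, with *Calb2* at 0 throughout. The part of mesothelium-like expression in these results was not tested.

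*Ifitm3*, an antiviral membrane protein, had 52.0, 90.9 and 80.7 FPKM in E2 and 69.2, 126 and 104 in 4OHT (log2 fold change -0.41, adjusted p = 0.000347). Of 28 tested interferon-stimulated genes 2 were lower (7.14%), *Ifitm3* and *Ifit2*, and 3 were higher (10.7%). These shares were near the 11.8% and 11.2% of all rows. The call of *Ifit2* was lost without any of 8 libraries. *Tnfaip2* (-0.43), *Ablim1* (-0.42) and *Plscr2* (-0.33) had p-values of similar rank. Of 69 tested rows of microRNA hairpins or small nucleolar RNAs 4 were lower, *Mir1896*, *Mir1199*, *Snord96a* and 1 row of *Mir3470a*, and 5 were higher, *Snord104*, *Mir682*, *Snora34*, *Snora78* and *Snora23*. Both shares were below those of all rows, 11.8% lower and 11.2% higher. These libraries were made from polyadenylated RNA, and the values of such short rows are uncertain. *Mir1896* lost its call without 4OHT replicate 1, E2 replicate 2 or 4OHT replicate 2 (adjusted p up to 0.080), and *Snord96a* lost it without any of 6 libraries.

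**Figure D2:**
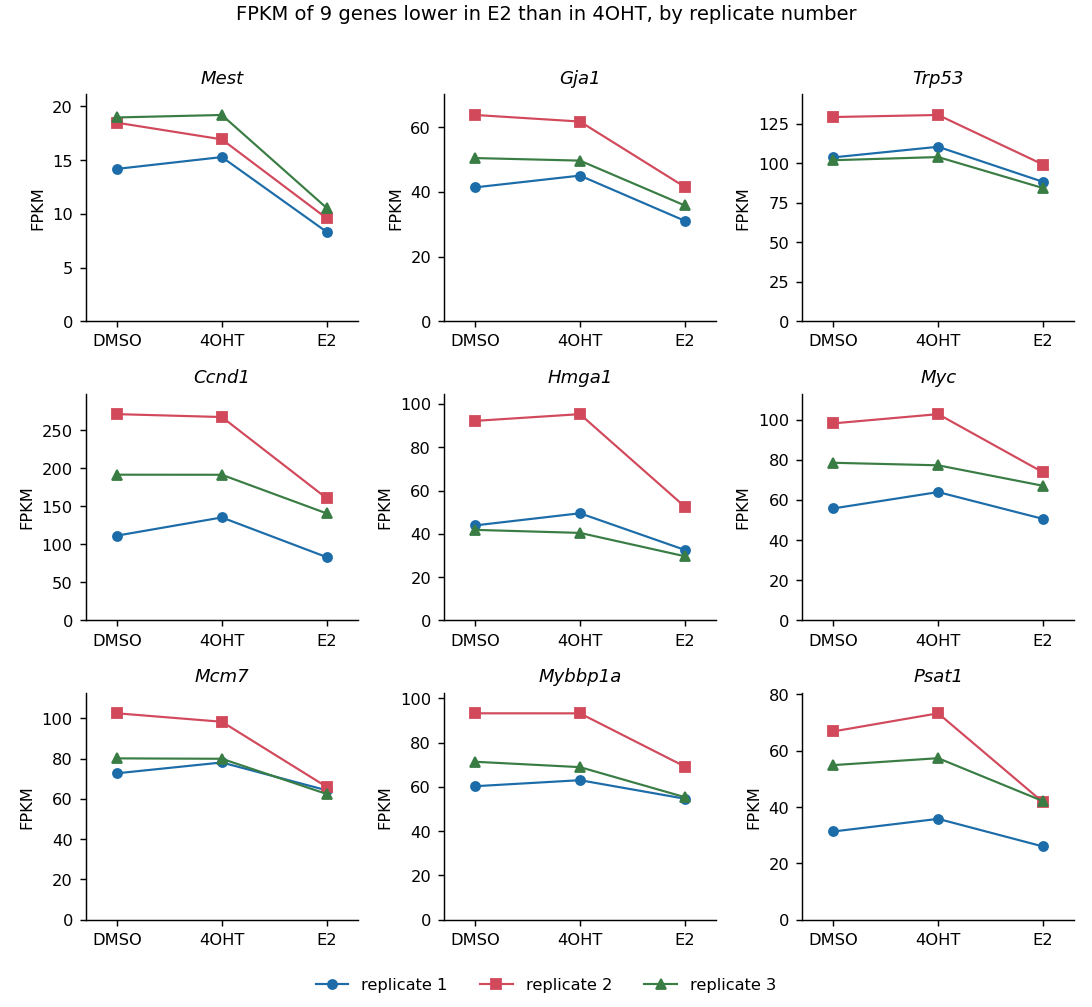
FPKM of 9 genes lower in E2 than in 4OHT (y axis from 0), with the 3 conditions on the x axis and 1 line per replicate number. Within each line the E2 point is the lowest, while lines of different replicates overlap for genes such as Hmga1 and Myc, whose replicate 2 stands above the others.

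*Ccnd1* was among the lower genes with the largest differences. It encodes cyclin D1, the partner of CDK4 and CDK6 (chromosome 7, 144929931 to 144939925). It had 83.2, 160.6 and 140.7 FPKM in E2 and 135.4, 267.4 and 191.5 in 4OHT. The pairs differed by -0.70, -0.73 and -0.44, and the log2 fold change was -0.62 (SE 0.074, adjusted p = 0.000987, and 0.499 without the block). The highest E2 sample stood above the lowest 4OHT sample, so that the difference is visible only within replicate numbers.

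*Hmga1*, a chromatin protein abundant in dividing cells, had 32.6, 52.5 and 29.6 FPKM in E2 and 49.5, 95.3 and 40.4 in 4OHT (log2 fold change -0.62, adjusted p = 0.00119). *Myc*, the transcription factor that promotes growth and ribosome production, had 50.6, 73.8 and 67.0 FPKM in E2 and 63.9, 102.7 and 77.2 in 4OHT (-0.34, adjusted p = 0.00625). For both genes replicate 2 was the highest in every condition and carried the largest paired difference, -0.85 for *Hmga1* and -0.47 for *Myc*. The adjusted p of *Myc* reached 0.0491 when single libraries were left out.

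Of 20 tested genes for D cyclins, cyclin-dependent kinases and their inhibitors, 5 were lower (25.0%) and 1 was higher (5.0%). The shares of all rows were 11.8% and 11.2%. The 5 were *Ccnd1*, *Cdkn1a*, which encodes the inhibitor p21 (-0.19), *E2f4* (-0.18), *Cdkn2a* (-0.16) and *Cdk4* (-0.15). The higher one was *Cdk6* (0.20). The 5 became 1 without 4OHT replicate 1, E2 replicate 2 or 4OHT replicate 2, 2 without E2 replicate 1 or DMSO replicate 3 and 3 without DMSO replicate 2. They became 2 with only the 6 E2 and 4OHT samples fitted or with exact 0 rows kept, and 3 without the filter on low values or without the variance trend. *Cdk6* lost its call without 4OHT replicate 1, E2 replicate 2 or 4OHT replicate 2. *Ccnd1* kept its call without each of the 9 libraries.

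*Trp53*, which encodes p53, had 88.1, 99.1 and 84.2 FPKM in E2 and 110.3, 130.4 and 103.8 in 4OHT (-0.34, adjusted p = 0.000785), and no E2 sample reached a 4OHT sample. Of the p53 targets and apoptosis genes, 10 of 38 were lower (26.3%) and 2 were higher (5.26%), beside 11.8% and 11.2% of all rows. The 2 were *Gadd45a* (0.38) and *Apaf1* (0.18, lost without any of 4 libraries). *Mdm2*, which marks p53 for degradation, was lower by -0.27 and *Phlda3*, an inhibitor of AKT, by -0.31. The 10 became 4 without 4OHT replicate 1 or 4OHT replicate 2, 5 without E2 replicate 2 and 6 with exact 0 rows kept.

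The list with the largest share of lower genes was ribosome biogenesis and RNA polymerase I, whose products transcribe, cut and modify ribosomal RNA and assemble the subunits in the nucleolus. Of its 76 tested members, 47 were lower in E2 (61.8%, beside 11.8% of all rows) and none was higher. At an unadjusted p under 0.05 in limma 61 were lower and 0 higher. At that unadjusted threshold 21.7% of all rows were lower and 17.7% higher, which is the background for the unadjusted counts of the other lists too. Its median was -0.18, beside -0.01 over all rows, and 73 members had a negative value. The medians within pairs 1, 2 and 3 were -0.13, -0.24 and -0.14. *Fbl*, fibrillarin, the methyltransferase of small nucleolar ribonucleoproteins, had 110.7, 131.7 and 111.9 FPKM in E2 and 135.3, 167.6 and 130.6 in 4OHT (-0.28, adjusted p = 0.00331). *Mybbp1a*, a nucleolar protein, had 54.6, 69.2 and 55.3 FPKM in E2 and 63.0, 93.2 and 68.9 in 4OHT (-0.31, adjusted p = 0.00579). Both genes kept an adjusted p under 0.05 without each of the 9 libraries in turn, but their groups overlapped. The 47 became 8 without 4OHT replicate 1, 12 without 4OHT replicate 2, 21 without E2 replicate 2, 29 without E2 replicate 3 and 31 with exact 0 rows kept, and none of the 76 passed without the block.

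The promoter of *Mybbp1a* is printed because it holds the E-box CACGTG, a site that MYC and its partner MAX are known to bind. A part of MYC in these differences was not tested. RefSeq's window of GRCm38.p6, chr11:72441077-72441376 (plus strand), runs from 250 bases before the gene start to 50 after, with its E-box in capitals.
Mybbp1a: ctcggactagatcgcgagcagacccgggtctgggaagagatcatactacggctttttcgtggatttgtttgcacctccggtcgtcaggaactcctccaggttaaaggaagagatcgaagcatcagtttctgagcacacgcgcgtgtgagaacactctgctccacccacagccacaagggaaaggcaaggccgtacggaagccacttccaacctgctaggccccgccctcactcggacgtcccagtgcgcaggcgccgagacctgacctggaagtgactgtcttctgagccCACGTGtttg
An E-box stood in 7 of 42 called ribosome biogenesis genes with a promoter window (16.7%), in 11 of the 67 tested ones (16.4%), in 14.2% of 950 lower genes, in 11.9% of 876 higher genes and in 12.1% of all 7701 tested genes with a window. The letters CACGTG and the E2F sites below were chosen after the values had been seen. A match describes the letters in the window only.

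The lists of S phase and of G2/M held lower genes and no higher one. Of 57 tested S phase genes 22 were lower (38.6%), with a list median of -0.21. Of 59 G2/M genes 27 were lower (45.8%), with a median of -0.19. Both shares stood beside 11.8% of all rows. At an unadjusted p under 0.05 in limma the counts were 38 and 41, with 0 higher in either list, beside 21.7% lower over all rows. *Mcm7*, a subunit of the helicase that opens DNA for replication, had 64.2, 66.0 and 62.4 FPKM in E2, 78.1, 98.3 and 79.9 in 4OHT and 72.7, 102.5 and 80.1 in DMSO. The E2 samples lay within 4 FPKM of each other and below all others, while replicate 2 was the highest in 4OHT and in DMSO (log2 fold change -0.40, adjusted p = 0.00687). *Tk1*, thymidine kinase, had 25.6, 28.8 and 24.3 FPKM in E2 and 31.7, 44.5 and 32.3 in 4OHT (-0.43, adjusted p = 0.00956), a call lost without 4OHT replicate 1 (adjusted p = 0.057). *Pold2*, a subunit of DNA polymerase δ, was lower by -0.35. Among mitotic genes, *Cdca3* had 33.8, 31.4 and 29.2 FPKM in E2 and 39.8, 45.0 and 36.8 in 4OHT (-0.35, adjusted p = 0.00326), and the kinesin *Kif20a* (-0.26) and *Ckap2* (-0.28) were lower as well. *Kif20a* lost its call without 4OHT replicate 1 and *Ckap2* without 4OHT replicate 2.

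The size of the difference varied among the pairs. The S phase medians were -0.10, -0.37 and -0.18 in pairs 1, 2 and 3, and the G2/M medians were -0.08, -0.32 and -0.20. The 22 S phase genes became 3 without 4OHT replicate 1 or 4OHT replicate 2, 9 without E2 replicate 2 or E2 replicate 3, 11 with exact 0 rows kept and 44 without E2 replicate 1. The 27 G2/M genes became 2 without 4OHT replicate 1 or 4OHT replicate 2, 8 without E2 replicate 2 or 4OHT replicate 3, 9 without E2 replicate 3, 13 without DMSO replicate 3 and 49 without E2 replicate 1, and 7 with exact 0 rows kept or 14 without the filter on low values. *Mcm7* remained below 0.05 without each of the 9 libraries (adjusted p up to 0.0424).

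Many S phase genes are known targets of E2F factors, and the sequences that carry an E2F site in the promoter are shown to let the site be compared among them. The letters TTTCGCGC and TTTGGCGC were searched on both strands. They stood in the window of 7 of the 21 called S phase genes that had one (33.3%) and of 13 of the 46 tested ones (28.3%), beside 1.99% of all tested genes, 3.05% of the lower genes and 0.799% of the higher genes. The first match in each of the 7 is printed in capitals with up to 12 bases on either side, on the strand of the gene.
Cdt1: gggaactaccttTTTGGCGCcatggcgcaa
Mcm3: aacttgggaagtTTTGGCGCcaag
Mcm5: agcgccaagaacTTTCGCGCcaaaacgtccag
Mcm6: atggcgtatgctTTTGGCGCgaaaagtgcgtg
Mcm7: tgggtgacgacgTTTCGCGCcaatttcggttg
Orc1: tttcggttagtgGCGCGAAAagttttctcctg
Uhrf1: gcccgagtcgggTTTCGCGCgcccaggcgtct
In GRCm38.p6 these stretches are Cdt1 at chr8:122568035-122568064 (plus strand), Mcm3 at chr1:20820263-20820286 (minus strand), Mcm5 at chr8:75109344-75109375 (plus strand), Mcm6 at chr1:128359796-128359827 (minus strand), Mcm7 at chr5:138171848-138171879 (minus strand), Orc1 at chr4:108579415-108579446 (plus strand), Uhrf1 at chr17:56304116-56304147 (plus strand). The log2 fold changes of the helicase subunits were -0.35 for *Mcm3*, -0.32 for *Mcm5*, -0.28 for *Mcm6* and -0.40 for *Mcm7*. *Cdt1*, which loads the helicase, was lower by -0.38, *Orc1*, a subunit of the origin recognition complex, by -0.24 and *Uhrf1*, which recruits the maintenance DNA methyltransferase, by -0.29.

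Amino acid synthesis and targets of the stress factor ATF4 had 18 lower (41.9%) and 3 higher genes (6.98%) among 43 tested. The shares of all rows were 11.8% and 11.2%. *Phgdh*, the first enzyme of serine synthesis, had 233.1, 207.0 and 238.1 FPKM in E2 and 308.6, 272.4 and 270.4 in 4OHT (log2 fold change -0.33, adjusted p = 0.00291), and the groups did not overlap. *Psat1*, the next enzyme of the pathway, had 26.0, 41.7 and 42.1 FPKM in E2 and 35.8, 73.3 and 57.4 in 4OHT (-0.56, adjusted p = 0.00176). The E2 samples 2 and 3 of *Psat1* exceeded 4OHT sample 1. *Aldh1l2*, a mitochondrial folate enzyme, was lower by -0.42. The 3 higher genes included *Vldlr* (0.71) and *Cbs* (0.47, lost without any of 4 libraries), 22 were not called, and the list median was -0.15. The 18 became 8 without 4OHT replicate 1 and 6 without 4OHT replicate 2, and the 3 became 1 without 4OHT replicate 1 or with exact 0 rows kept.

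Of 75 cytosolic ribosomal protein genes 74 had a negative value, with a median of -0.13 beside -0.01 over all rows. Of the 75, 28 were lower (37.3%, beside 11.8% of all rows) and none was higher. At an unadjusted p under 0.05 in limma the counts were 62 and 0. *Rpl29*, the lowest, had 736.9, 798 and 723.1 FPKM in E2 and 797.4, 1020 and 821.5 in 4OHT (-0.22, adjusted p = 0.0205), so that E2 replicate 2 exceeded 4OHT replicate 1, and its call was lost without any of 4 libraries. These genes have many near-identical pseudogenes, so their values are uncertain. The count of 28 changed under most alternatives. It was 0 with only the 6 E2 and 4OHT samples fitted, 1 without the filter on low values and 15 with exact 0 rows kept. It was 57 with upper quartile scaling, 44 with equal totals and 14 with GC content and transcript length corrected. It was 0 without 4OHT replicate 1 or 4OHT replicate 2, 1 without E2 replicate 2 or E2 replicate 3, 3 without DMSO replicate 3, 5 without DMSO replicate 2, 11 without DMSO replicate 1 and 18 without 4OHT replicate 3.

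Of 74 mitochondrial ribosome genes 26 were lower (35.1%, beside 11.8% of all rows) and none was higher. The median was -0.13, with 42 lower and 0 higher at an unadjusted p under 0.05 in limma. *Mrpl13* had 84.9, 85.8 and 84.8 FPKM in E2 and 93.9, 108.9 and 98.8 in 4OHT (-0.23, adjusted p = 0.00735). The 26 became 2 without 4OHT replicate 1, 3 without 4OHT replicate 2 and 11 without E2 replicate 2. Of 75 nuclear genes of oxidative phosphorylation 12 were lower (16.0%), a share near the 11.8% of all rows, although 69 had a negative value (median -0.09), and none was higher (28 and 0 of the 75 at an unadjusted p under 0.05 in limma, where 21.7% of all rows were lower). The 12 became 0 without 4OHT replicate 1, 2 without 4OHT replicate 2, 3 without E2 replicate 2, 4 without DMSO replicate 3 and 6 without E2 replicate 1. It was 3 with only the 6 E2 and 4OHT samples fitted, 5 with exact 0 rows kept, 6 with GC content and length corrected, and 7 without the filter on low values or without the variance trend.

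Of 50 nuclear pore and transport genes 13 were lower (26.0%, beside 11.8% of all rows) and none was higher. At an unadjusted p under 0.05 in limma the counts were 23 and 0. The lower genes were led by *Nup210* (-0.40), *Xpot* (-0.22) and *Aaas* (-0.24, lost without 4OHT replicate 1). The 13 became 2 without 4OHT replicate 1, 3 without 4OHT replicate 2, 6 without E2 replicate 3 or 4OHT replicate 3, 7 without E2 replicate 2, 8 without DMSO replicate 3 or the filter on low values, 6 with exact 0 rows kept and 21 without E2 replicate 1.

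Retinoid genes moved in both directions. *Cyp26a1*, the enzyme that breaks down retinoic acid, had 1.52, 1.21 and 5.19 FPKM in E2 and 2.93, 3.29 and 7.90 in 4OHT (log2 fold change -0.71, adjusted p = 0.0101), and its call was lost without 4OHT replicate 1 (adjusted p = 0.0646). *Stra6*, the receptor through which cells take up retinol, had 14.7, 15.4 and 23.6 FPKM in E2 and 23.1, 19.9 and 32.9 in 4OHT (-0.48, adjusted p = 0.00113). *Crabp2*, which carries retinoic acid to its receptor, was lower by -0.45. On the other side stood *Dhrs9*, a retinol dehydrogenase and the gene with the largest positive difference of all. In the whole list of retinoid and steroid metabolism, 6 of 34 tested members were lower (17.6%) and 16 were higher (47.1%). The shares of all rows were 11.8% and 11.2%. The 6 became 3 without 4OHT replicate 1 or 4OHT replicate 2, and the 16 became 8 and 10.

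Cytokine genes were also divided, with 10 of 28 lower (35.7%) and 7 higher (25.0%), beside 11.8% and 11.2% of all rows. *Mif*, a macrophage cytokine, had 858.2, 1060 and 918.9 FPKM in E2 and 1095, 1558 and 1116 in 4OHT (-0.40, adjusted p = 0.00191). *Vegfa*, the vascular growth factor, was lower by -0.42 and *Cx3cl1*, the chemokine fractalkine, by -0.41, while *Csf2*, which encodes GM-CSF, was higher by 1.40 and *Spp1*, osteopontin, by 0.56. The 10 became 5 without 4OHT replicate 1. Of 27 NF-κB genes 7 were lower (25.9%), including the atypical inhibitor *Bcl3* (-0.51) and the inhibitor *Nfkbie* (-0.32). In the other direction 4 were higher (14.8%, near the 11.2% of all rows), led by the inhibitor *Nfkbia* (1.07). The 7 became 3 without 4OHT replicate 1, and the 4 became 1 without 4OHT replicate 1 and 2 without E2 replicate 1, 4OHT replicate 2 or 4OHT replicate 3.

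Feedback genes of the RAS-MAPK pathway were divided likewise. *Etv4* had 15.2, 25.5 and 18.6 FPKM in E2 and 22.1, 33.6 and 24.1 in 4OHT (log2 fold change -0.42, adjusted p = 0.000962). Its relative *Etv5* (-0.30) and the ERK phosphatase gene *Dusp6* (-0.30) were lower, and *Fosl1*, an AP-1 subunit, was lower by -0.50 (lost without 4OHT replicate 1 or 4OHT replicate 2). In contrast, *Dusp2* (0.68), *Ier3* (0.58) and *Fos* (0.91), immediate early genes, were higher. Of the list of RAS-MAPK feedback regulators 8 of 39 were lower (20.5%, beside 11.8% of all rows) and 6 were higher (15.4%, near the 11.2% of all rows). The 8 became 3 without 4OHT replicate 1 or 4OHT replicate 2 and 5 without E2 replicate 2.

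Among antioxidant genes controlled by NRF2, 12 of 50 were lower (24.0%) and 4 were higher (8.0%), beside 11.8% and 11.2% of all rows. *Txnrd1*, thioredoxin reductase, had 294.4, 327.5 and 284 FPKM in E2 and 381.6, 414.8 and 348.4 in 4OHT (-0.34, adjusted p = 0.000519), with no overlap. *Cbr3* (-0.34) and *Gclm*, a subunit of the enzyme that limits glutathione synthesis (-0.18, lost without 4OHT replicate 1), were lower, and *Gpx3* (0.33) and *Me1* (0.27) were higher. The 12 became 2 without 4OHT replicate 1 and 7 without 4OHT replicate 2 or E2 replicate 3, and the 4 became 2 without 4OHT replicate 1 and 7 with equal totals or with GC content and length corrected.

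Single lower genes of other lists included the receptor tyrosine kinase gene *Axl* (log2 fold change -0.34), the Wnt receptor gene *Fzd7* (-0.29), the Hedgehog receptor *Ptch1* (-0.16) and its partner *Smo* (-0.16), N-cadherin *Cdh2* (-0.19), the water channel *Aqp1* (-0.39) and *Hoxb2* (-0.31). *Ptch1* lost its call without any of 7 libraries, *Smo* without any of 3 and *Cdh2* without 4OHT replicate 1. *Cnn1*, calponin, was lower by -0.47, a call lost without 4OHT replicate 1. It is a smooth muscle marker, 1 of 3 tested, and the summed FPKM of the 8 markers was 1520 to 1980 in E2 and 1480 to 1780 in 4OHT. The ciliated cell factor *Foxj1* was lower by -0.41, the only one of 5 tested ciliated markers called. The summed FPKM of that list was 16.8 to 21.3 in E2 and 21.1 to 25.4 in 4OHT. Whether cells of either type contributed was not tested.

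**Figure D3:**
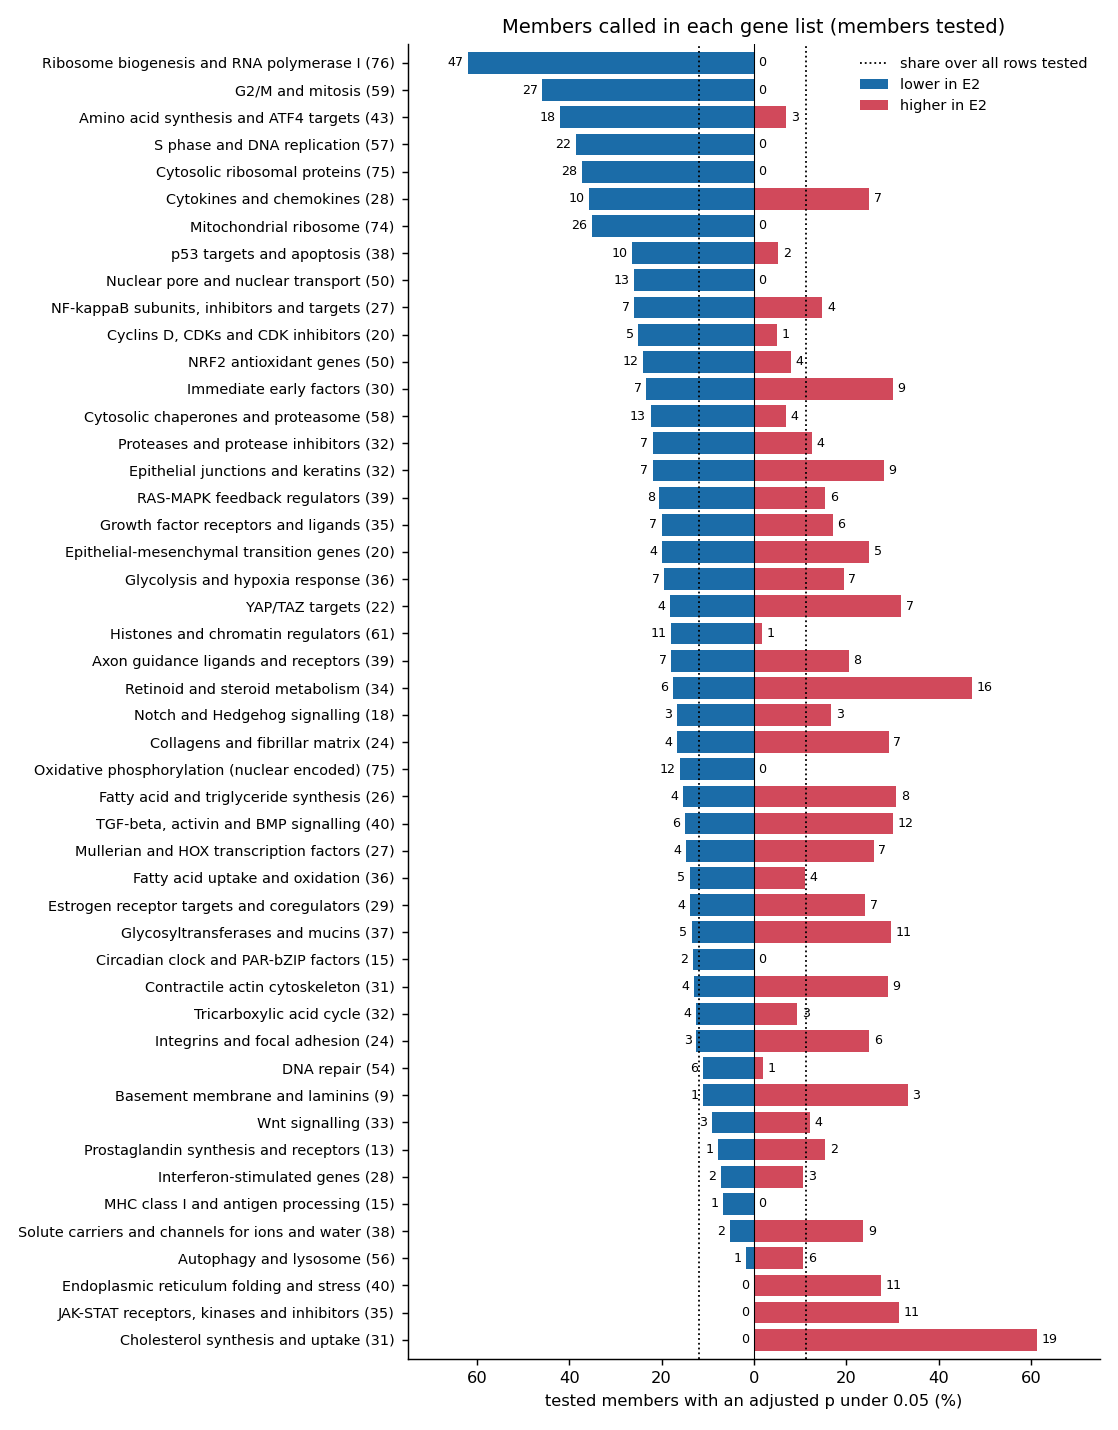
Share of the tested members of 48 gene lists with an adjusted p under 0.05 (x axis, %), lower in E2 to the left and higher to the right, with counts at the bar ends and members tested in parentheses. Dotted lines give the shares over all rows, 11.8% and 11.2%. Ribosome biogenesis reaches 61.8% on the left with none on the right, and cholesterol synthesis shows the opposite.

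Of 29 tested estrogen receptor targets and coregulators 7 were higher in E2 (24.1%, beside 11.2% of all rows). In the list 4 were lower (13.8%, near the 11.8% of all rows) and 18 were not called, and the median was 0.06. The 7 became 4 without 4OHT replicate 1, E2 replicate 2 or 4OHT replicate 2, and the 4 became 1 without 4OHT replicate 1 and 2 without 4OHT replicate 2, DMSO replicate 3, E2 replicate 3, 4OHT replicate 3 or the filter on low values, or with exact 0 rows kept. *Pgr* had 38.2, 21.1 and 15.9 FPKM in E2 and 9.67, 3.67 and 2.39 in 4OHT (log2 fold change 2.15, adjusted p = 0.000355), a 4.78-fold ratio of means. *Greb1*, a coregulator of ERα, was higher by 1.78. *Esr1* itself had 16.3, 9.32 and 8.31 FPKM in E2 and 11.2, 5.25 and 5.40 in 4OHT (0.59, adjusted p = 0.000201). All 3 were highest in replicate 1 in both treatments. For *Esr1* the groups overlapped, and its adjusted p without the block was 0.504.

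*Dhrs9* had 21.5, 14.0 and 8.35 FPKM in E2 and 1.07, 0.754 and 0.336 in 4OHT (3.11, adjusted p = 4.83e-05), a 20.3-fold ratio of means. *Sgk1*, a kinase that regulates ion transport, had 122.1, 122.2 and 112.3 FPKM in E2 and 36.2, 38.6 and 36.2 in 4OHT (1.66, adjusted p = 7.77e-05), and it passed without the block too (adjusted p = 0.00777). *Nfkbia*, which encodes IκBα, had 106.6, 87.8 and 76.6 FPKM in E2 and 48.6, 42.8 and 35.9 in 4OHT (1.07, adjusted p = 7.65e-06), the smallest adjusted p of all rows. *Sprr1a*, a cornified envelope protein (2.16), *Wnk2*, a kinase (2.20), *Ceacam1*, an adhesion molecule (1.76), and *Krt7*, keratin 7 (1.33), were further examples.

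Cholesterol synthesis and uptake had the largest share of higher genes among the 48 function lists. Of 31 tested genes 19 were higher in E2 (61.3%, beside 11.2% of all rows) and none was lower. At an unadjusted p under 0.05 in limma 21 were higher and 1 lower, and the median was 0.18. *Hsd17b7*, an enzyme of the pathway, had 26.1, 19.4 and 20.9 FPKM in E2 and 18.1, 14.6 and 15.9 in 4OHT (log2 fold change 0.42, adjusted p = 0.000486), and the groups did not overlap. The 19 became 7 without 4OHT replicate 1. JAK-STAT genes were higher in 11 of 35 (31.4%), led by the kinase *Jak2* (0.77) and the growth hormone receptor *Ghr* (0.68). Genes of folding in the endoplasmic reticulum were higher in 11 of 40 (27.5%), led by the stress sensor *Ern1* (1.04) and the factor *Xbp1* (0.43). Both shares stood beside 11.2% of all rows. No tested member of either list was lower, and 0 were at an unadjusted p under 0.05 in limma, where 13 and 15 were higher. The 11 JAK-STAT genes became 6 without 4OHT replicate 1. The 11 folding genes became 4 without 4OHT replicate 1, 5 without E2 replicate 3, 6 without E2 replicate 1 or 4OHT replicate 3, and 7 without 4OHT replicate 2 or DMSO replicate 3. They became 6 with only the 6 E2 and 4OHT samples fitted and 17 with equal totals.

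**Figure D4:**
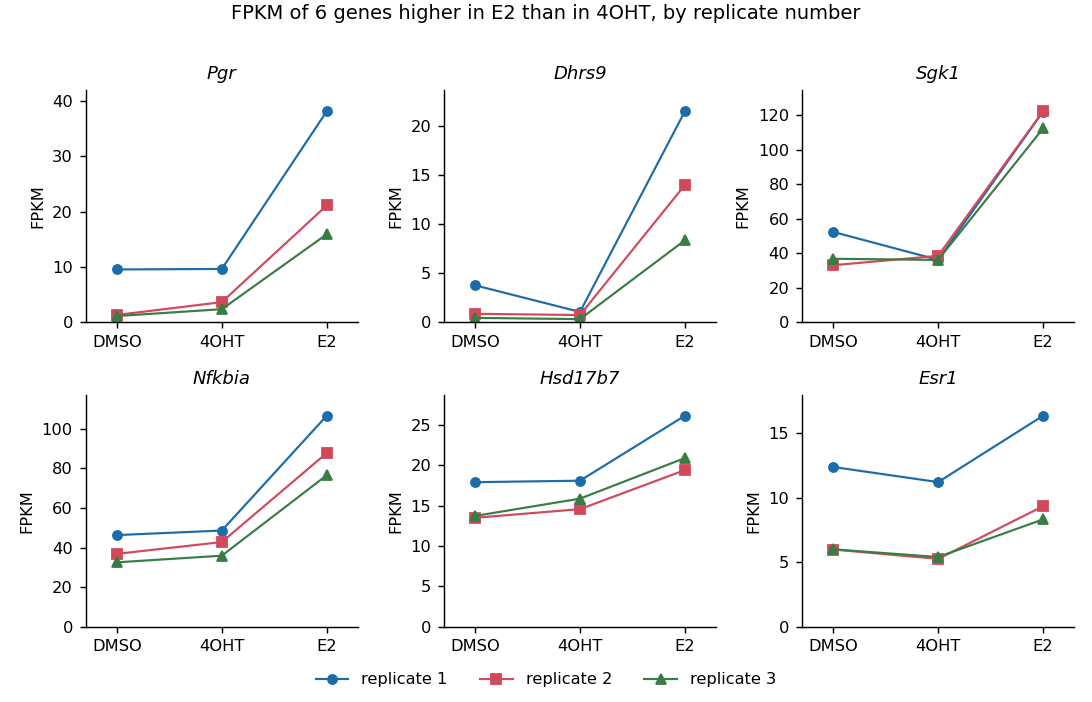
FPKM of 6 genes higher in E2 than in 4OHT (y axis from 0), with the 3 conditions on the x axis and 1 line per replicate number. In each line E2 is the highest point, and for Pgr, Dhrs9, Hsd17b7 and Esr1 replicate 1 lies above replicates 2 and 3 in E2.

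The promoters of *Gja1* and *Dhrs9*, 1 gene lower and 1 higher, are printed because each holds an AP-1 site, the 7-base element to which ERα can be tethered through FOS and JUN. The windows are RefSeq's for GRCm38.p6, chr10:56377050-56377349 and chr2:69380212-69380511, both on the plus strand, with the site in capitals.
Gja1: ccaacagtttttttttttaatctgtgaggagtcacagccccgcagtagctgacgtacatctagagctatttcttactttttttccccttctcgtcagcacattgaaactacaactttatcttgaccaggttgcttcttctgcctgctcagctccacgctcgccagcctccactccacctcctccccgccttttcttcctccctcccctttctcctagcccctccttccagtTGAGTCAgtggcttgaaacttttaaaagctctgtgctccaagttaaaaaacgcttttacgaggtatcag
Dhrs9: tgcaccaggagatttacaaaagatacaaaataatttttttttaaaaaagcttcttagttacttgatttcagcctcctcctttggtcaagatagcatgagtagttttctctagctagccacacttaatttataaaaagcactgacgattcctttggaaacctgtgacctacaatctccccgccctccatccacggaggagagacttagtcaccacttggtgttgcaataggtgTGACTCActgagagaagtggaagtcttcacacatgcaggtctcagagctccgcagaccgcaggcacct
The letters TGANTCA, read on both strands, were found in 6.53% of 950 lower genes, 6.39% of 876 higher genes and 5.91% of 7701 tested genes. The full palindromic estrogen response element was in 0 of the 7701 windows of 300 bases, which says only that these letters are not there. The serum response element core was in 0 of 950 lower and 1 of 876 higher genes, beside 9 of all.

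The solvent samples place the lower genes. Of the 1305, 1079 had an E2 mean below the DMSO mean and a 4OHT mean above it, 215 had both means below and 11 had both above. Their median log2 difference was -0.16 for E2 minus DMSO and 0.06 for 4OHT minus DMSO, and the higher genes had 0.26 and 0.00. Both contrasts share samples with the main one and are given side by side only. Against DMSO, 785 rows were lower in E2 (7.08%) and 1377 higher (12.4%). In 4OHT 5 rows were higher (0.0451%), *Csf2*, *Padi2*, *Bnc1*, *Serpinb9b* and *Tmem20*, and 0 were lower in limma, with 948 higher and 591 lower at an unadjusted p under 0.05. *Mest*, *Gja1* and *Apln* had values near 0 for 4OHT minus DMSO (0.00, 0.02 and -0.02), with E2 minus DMSO at -0.79, -0.50 and -0.75. For *Etv4* and *Etv5* the DMSO level lay between, with 4OHT minus DMSO at 0.21 and 0.20 and E2 minus DMSO at -0.20 and -0.10. Neither was called in 4OHT against DMSO. Among the higher genes, *Dhrs9* and *Wnk2* had 4OHT minus DMSO at -0.48 and -0.53, with E2 minus DMSO at 2.6 and 1.67. Neither was called in 4OHT against DMSO here, while the paper lists both as lower with 4OHT. *Pgr* and *Greb1* lay on the other side, with 4OHT minus DMSO at 0.55 and 0.22, but neither was called there (limma adjusted p = 0.319 and 0.598).

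For the lists, the level relative to DMSO depended on the replicate number. In replicates 2 and 3 the S phase median was -0.38 and -0.18 for E2 minus DMSO and 0.01 and 0.00 for 4OHT minus DMSO. In replicate 1 it was 0.03 for E2 minus DMSO and 0.12 for 4OHT minus DMSO, so that the pair differed with E2 near the solvent and 4OHT above it. G2/M genes had the same arrangement, with 0.03 and 0.09 in replicate 1. Ribosome biogenesis was below DMSO in E2 in all 3 replicates, with medians of -0.05, -0.24 and -0.15. Cytosolic ribosomal proteins stood above DMSO in 4OHT in each replicate, at 0.07, 0.10 and 0.04, with 0 members called. Oxidative phosphorylation genes did so too, at 0.10, 0.10 and 0.05, and the median over all rows was 0.025.

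**Figure D5:**
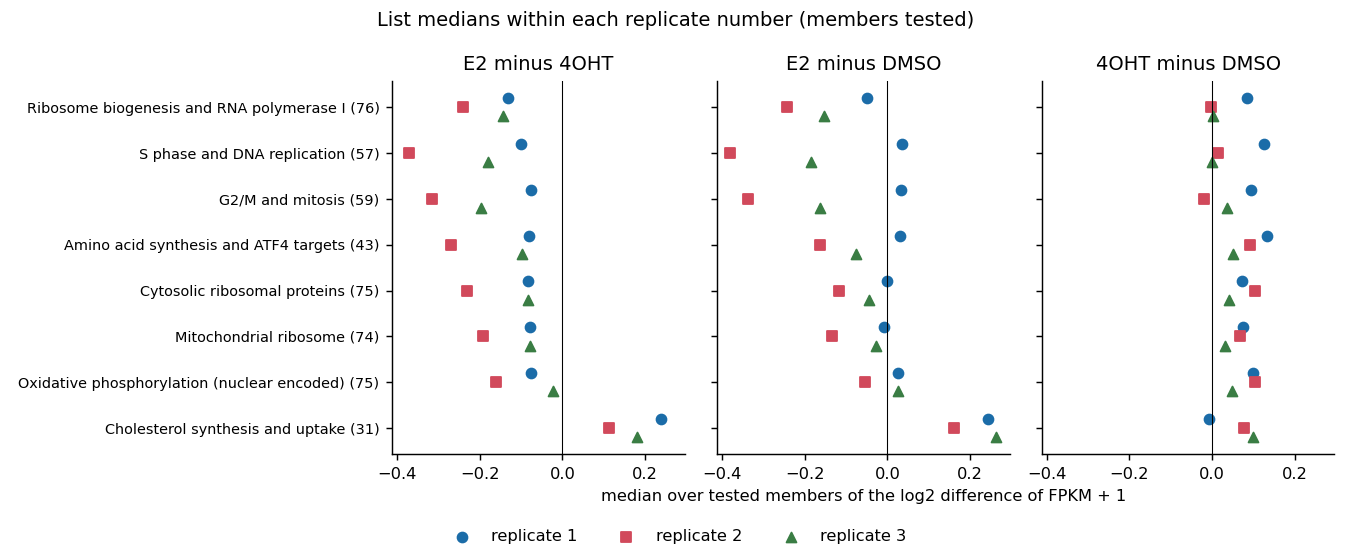
Median over the tested members of 8 gene lists of the log2 difference of FPKM + 1 (x axis) within each replicate number, for E2 minus 4OHT, E2 minus DMSO and 4OHT minus DMSO. In the left panel 7 lists lie below 0 in all 3 replicates, with replicate 2 farthest, and cholesterol synthesis lies above 0. In the middle panel replicate 1 of the S phase and G2/M lists lies at 0.03.

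The lower and higher genes also differed in level and transcript length. The median of mean FPKM was 22.8 for the lower, 14.6 for the higher and 13.5 for all tested rows. The median transcript length was 2697 bases for the lower, 4168 for the higher and 3316 for all, and the median GC content was 51.7%, 48.5% and 49.7%. With GC content and length corrected in the fit with the block, 1307 rows were lower and 1245 higher, of which 1060 and 1044 were called in the same direction without the correction.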

How the data were processed

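Per the labels and the study's methods, RNA of FVB MOE cells was sequenced from poly(A)-selected, directional libraries as single-end reads. The authors aligned the reads with TopHat2 2.0.8b to mm10 and deposited FPKM from Cufflinks/Cuffdiff 2.1.1 with a UCSC annotation. Whether libraries were scaled further is not given in the sources used here. The values are FPKM, so no count test was made.

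Groups and replicate numbers came from the labels. Rows that reached 1 FPKM in 3 or more of the 9 samples, without an exact 0, were kept. All 9 samples entered one limma fit (limma 3.58.1, R 4.3.3) on log2(FPKM + 1) with a variance trend and the replicate number as a block. Each row was adjusted by Benjamini-Hochberg over all 11094 rows, and an adjusted p under 0.05 was called. An exact sign-flip test of 3 pairs cannot go below a two-sided p of 0.25. Same-numbered samples deviated together from their condition means in all 9 cross-condition pairs (correlations 0.523 to 0.828), which with the labels is the basis of the pairing. The code was tested on simulated data.

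The members, the 48 gene lists (2242 genes) and the tests were chosen with earlier results of these data known. Genes were named as follows, among called rows with the same direction in all pairs and a single, not predicted, symbol: the 15 with the most negative and 10 with the most positive log2 fold change, the 10 lower and 5 higher with the smallest p, the 3 lower and 2 higher with the smallest p of each list, and Esr1, Esr2, Pgr and Greb1. Other genes were named after their values were seen. A symbol in several rows was represented in the lists by its row of highest mean. Transcript length and GC content came from GENCODE M21 (GRCm38, the assembly of mm10), and promoters from RefSeq (GRCm38.p6), matched by symbol. The alternatives tried are given in the closing section. Some genes are not reported here.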

Additional observations from a re-analysis of the deposited data

How the results depend on the processing

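Most calls needed the block for the replicate number. Without it 2 rows were lower in E2 and 38 higher, in place of 1305 and 1243. At an adjusted p under 0.01, 272 were lower and 554 higher, and with a fold-change minimum of 0.5 on the log2 scale, 27 and 210. Rows with an exact 0 kept gave 862 lower rows. Leaving out single libraries gave 247 to 1318 lower and 510 to 1192 higher rows, and leaving out a whole replicate number gave 340 to 588 lower and 650 to 683 higher. All other alternatives (only the 6 samples compared, upper quartile scaling, low rows kept, no variance trend, equal totals, a smaller pseudocount of 0.1, and the correction for GC content and length, the last chosen after the data were examined) stayed within 1.5 times of both counts over all rows, while counts of single lists moved more, as given beside them. No called row changed sign under these alternatives except *Aak1*, at 0.16 and, with GC content and length corrected, 0.00. Of 208 named genes, 14 kept their call without the block, 133 without 4OHT replicate 1 and 157 without 4OHT replicate 2. Of the 128 named lower genes, 59 kept it without each of the 9 libraries in turn.

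The files give FPKM and no counts, so alternatives that need counts were not run and no interval for counting error can be given. Most lower rows differ by less than 0.34 on the log2 scale, and the pairs are 3.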
